A study of Mus musculus with 9 samples.

Results

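The genes described here encode the proteins of the cytosolic ribosome. They were chosen by symbol: names that begin with Rpl or Rps followed by a digit, Rpsa, and Rplp0, Rplp1 and Rplp2, without the ribosomal S6 kinases, binding proteins and pseudogenes. The rule gave 85 of the 23337 genes in the table. They comprise 43 proteins of the large subunit, 31 of the small subunit, 3 of the P-stalk and 8 duplicated paralogs. Of the 85 genes, 83 had at least 1 count in some library, and 82 averaged 20 counts or more over the 9 libraries. Rpl10l and Rpl26 were listed at 0 counts in every library. For Rpl10l this allows up to 3 counts or between 0.0895 and 0.121 CPM (counts scaled to a common library size). Rpl26 is a core large subunit gene, and 71.3% of the 50-base windows of its transcript also occur in transcripts of 12 other genes, so its 0 is not read as a level. The part of the shared sequence in this 0 was not tested. Rpl3l, a paralog known from striated muscle, had at most 2 counts in any library.

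Immortalised mouse embryonic fibroblasts (MEFs) that lack functional C/EBPβ (Cebpb-ko, on a C57BL/6 x 129 background) were stably transfected with an empty vector (EV) or with a plasmid for rat C/EBPβ-LAP or rat C/EBPβ-LIP, and kept under Zeocin. LAP, the long isoform, activates transcription, and LIP, the short isoform, binds the same DNA without the activating domains. All 9 libraries, 3 per group, therefore came from cells without their own C/EBPβ, and the groups differ in the plasmid. The question was which transcripts each isoform changes, and the LIP and the LAP comparison share the EV libraries.

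Each ribosome is built from ribosomal RNA and a fixed set of proteins, so the genes of the set are usually expressed together and at high levels. Their mRNAs are short and typically begin with a cytosine followed by a run of pyrimidines, the 5' terminal oligopyrimidine (TOP) tract, through which growth signals set their translation. A few proteins have a duplicated paralog, and some of these paralogs are restricted to tissues such as muscle or testis.

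The start of the TOP tract was looked up in the RefSeq promoter table on GRCm38.p6, which gave a start site for 64 of the 85 genes. A gene was counted where any of its listed starts had a C followed by at least 4 pyrimidines on the strand of the gene. This held for 13 of the 64 genes (20.3%), against 493 of 17558 genes (2.81%) in the whole table. The listed start need not be the one used in these cells. Most of the 64 genes lacked the feature. The sequences below show genes picked because they have it, and Rps12, which does not, with 12 bases before the listed start and 18 from it. Capitals mark the unbroken pyrimidine run that begins at the start base. In Rps12, one of the genes that varied most, the listed start is no C and no base is in capitals.
Rpl15 (chr14:18270969-18270998, minus strand): ggagaaagccttCTTCCTTTCCTCTggcgg
Rpl35 (chr2:39005114-39005143, minus strand): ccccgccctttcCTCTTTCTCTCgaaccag
Rps6 (chr4:86857350-86857379, minus strand): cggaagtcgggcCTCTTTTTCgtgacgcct
Rpl38 (chr11:114668568-114668597, plus strand): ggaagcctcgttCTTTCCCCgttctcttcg
Rps12 (chr10:23787192-23787221, minus strand): cgtcatgcggccaccgccggccttttcccc

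In the promoters, 250 bases before to 50 after the start, the letters TTGCGCA, part of the C/EBP recognition palindrome, were found on either strand in 4.69% of the 64 genes and in 2.84% of all genes. CCAAT, on either strand, was found in 31.3% of the 64 genes and in 42.4% of all genes. The pentamer CTTTT lay within 20 bases of the start in 10.9% of the 64 genes and in 4.52% of all genes, a feature that was chosen after its values were seen. These matches describe letters and no binding.

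Libraries held 24839139 to 33522082 reads on genes, and intervals below cover counting error only. Of 10 fibroblast markers, 9 had over 3 counts in every library, Pdgfrb being at 3 counts in LIP 3. Pecam1 (endothelial), Ptprc (blood) and Myod1 (muscle) were at 0 throughout. Of 4 endothelial markers, however, 3 had over 3 counts in every library, with Kdr at 31 to 90. Cd68 of the blood list had 68 to 250 counts, with the most in LIP 2, and the other 4 had at most 3. Over the libraries the endothelial list summed to between 1.54 and 3.64 CPM, the blood list to between 2.51 and 8.22 CPM and the muscle list to at most 0.218 CPM. The epithelial list summed to between 485 and 1004 CPM, of which Krt8 and Krt14 made up most. Counts of Rn45s, the precursor of ribosomal RNA, were highest in the library numbered 3 of each group, with 83591 in EV 3, 40398 in LAP 3 and 49870 in LIP 3.

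LAP 2 and LIP 2 stood apart from the other libraries in their ribosomal protein transcripts. The genes took 6.05% of all counts in EV 1, 6.14% in EV 2 and 6.78% in EV 3. They took 5.99% in LAP 1, 11.5% in LAP 2 and 6.37% in LAP 3, and 6.42% in LIP 1, 10.5% in LIP 2 and 7.86% in LIP 3. The exact binomial 95% interval for LAP 2 ran from 11.49% to 11.51%, so the gap to the other LAP libraries was far above counting error. The mean share was 6.32% ± 0.402 in EV, 7.95% ± 3.08 in LAP and 8.26% ± 2.08 in LIP (SD, n = 3 each). Without the libraries numbered 2 in both groups, LIP lay 0.726 percentage points above EV and LAP lay 0.236 points below it (-0.236).

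**Figure D1:**
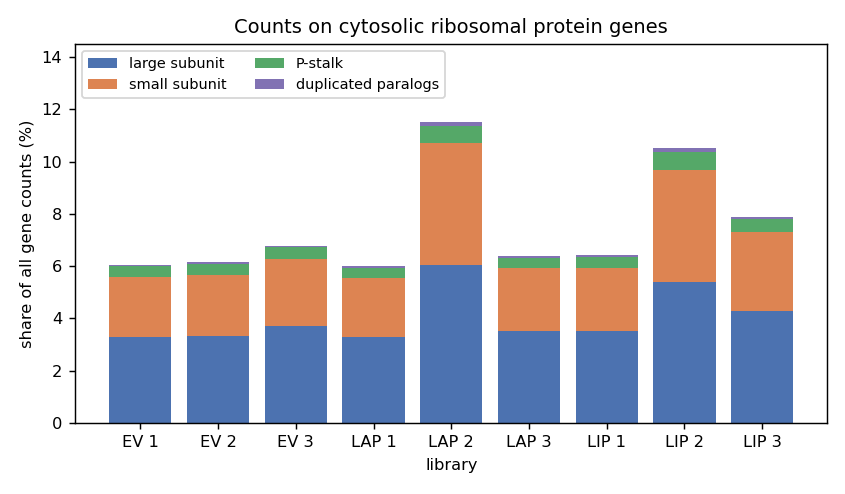
Share of all gene counts, in percent, that fell on cytosolic ribosomal protein genes in each of the 9 libraries, stacked by large subunit, small subunit, P-stalk and duplicated paralogs. LAP 2 (11.5%) and LIP 2 (10.5%) stand above the other 7 libraries, which lie between 5.99% and 7.86%.

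Relative to the mean of the EV libraries, the 82 genes had a median of 2.06-fold in LAP 2 and 1.51-fold in LIP 2. In LAP 1 and LAP 3 the median log2 difference from EV was 0.0035 and 0.0082. In LIP 1 it was 1.05-fold and in LIP 3 1.23-fold. Thus both LAP libraries other than LAP 2 sat at the EV level, while LIP 3 was moderately above it. In LIP 3, 68 of the 82 genes (82.9%) exceeded all 3 EV libraries, against 35.7% of all 11535 genes that averaged 20 counts or more. In LIP 1 it was 38 of 82 (46.3%, against 29.1% of all genes), in LIP 2 74 (90.2%, against 35.1%) and in LAP 2 80 (97.6%, against 37.3%). In LAP 1 this held for 21 of 82 (25.6%, against 25.4% of all genes) and in LAP 3 for 20 of 82 (24.4%, against 25.2%).

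**Figure D2:**
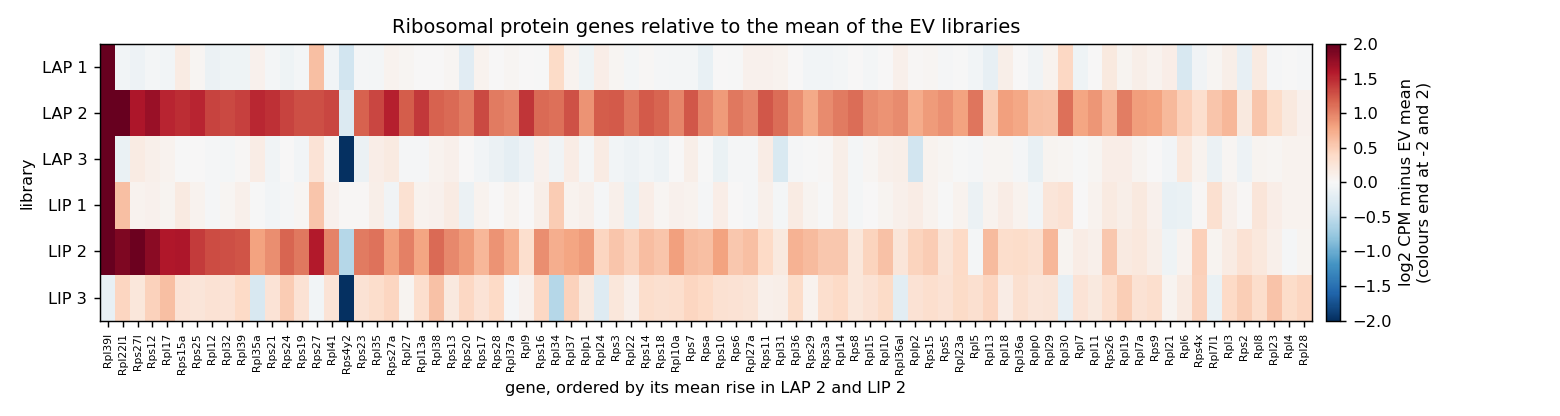
Difference in log2 CPM from the mean of the 3 EV libraries for 81 of the 82 ribosomal protein genes that averaged 20 counts or more (columns) in the LAP and LIP libraries (rows), with colours ending at -2 and 2. Red fills most of the rows LAP 2 (median 1.04 over the 82) and LIP 2 (0.59), the row LIP 3 is pale red (0.29), and Rpl39l at the left is red in all LAP libraries.

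Within its group, LAP 2 was above the mean of LAP 1 and LAP 3 for all 82 genes, by 2.04-fold at the median and by over 2-fold for 41 genes, against 5.15% of all genes. LIP 2 was above LIP 1 and LIP 3 for 68 of 82 genes, by 1.32-fold at the median and by over 2-fold for 12 genes (14.6%, against 5.04% of all genes). The small subunit exceeded the large subunit in both, with median log2 differences of 1.12 and 0.95 in LAP 2 and of 0.49 and 0.33 in LIP 2. These figures describe single libraries and carry no test. The summed level of the 10 fibroblast markers was lowest within its group in these libraries, at 29442 CPM in LAP 2 and 17012 CPM in LIP 2, against up to 43170 CPM in LAP and 30253 CPM in LIP. Fn1, which encodes fibronectin, had 10374, 5016 and 8158 CPM in LAP and 9905, 4258 and 8158 CPM in LIP, while S100a4 of the same list had 1855, 4862 and 1566 CPM in LAP and 1478, 2485 and 1312 CPM in LIP. Their part in the result was not tested.

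The genes did not move by the same amount. Rps12, a small subunit protein, had 1315, 1401 and 1573 CPM in EV 1 to EV 3, 1380, 4711 and 1535 CPM in LAP 1 to LAP 3, and 1519, 4989 and 1960 CPM in LIP 1 to LIP 3. LAP 2 and LIP 2 were the highest, at 3.24-fold and 2.89-fold the mean of the other libraries of their group. LIP 3 was also above all EV libraries. Rpl17, a large subunit protein at the exit of the peptide tunnel, followed with 2.85-fold and 2.42-fold, Rps15a with 2.64-fold and 2.60-fold, and Rps25 with 2.81-fold and 2.36-fold. At the other end stood large subunit genes. Rpl28 had 474, 451 and 557 CPM in EV, 484, 523 and 518 CPM in LAP, and 516, 513 and 664 CPM in LIP, so that LAP 2 and LIP 2 were 1.04-fold and 0.876-fold the other libraries. Rpl4 was at 1.12-fold and 0.842-fold, and Rpl23 at 1.28-fold and 0.841-fold. The genes named in this paragraph were taken from the ends of that order after their values were seen.

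Rpl5 and Rpl11, which with 5S ribosomal RNA can bind Mdm2 and stabilise p53, differed between the 2 libraries. Rpl5 was 2.16-fold in LAP 2 and 0.910-fold in LIP 2, and Rpl11 was 1.81-fold and 0.982-fold. Rps6, the substrate of the S6 kinases, had 1281, 1366 and 1385 CPM in EV, 1340, 2791 and 1322 CPM in LAP, and 1354, 1960 and 1639 CPM in LIP. Rps19, which is mutated in Diamond-Blackfan anaemia, was 2.52-fold in LAP 2 and 1.84-fold in LIP 2. Rpsa, the laminin receptor precursor and the gene with the most counts of the set, had 2319, 2439 and 2647 CPM in EV, 2234, 4903 and 2440 CPM in LAP, and 2426, 3759 and 3232 CPM in LIP. Relative to the rest of their group, Rps19 was thus high in both LAP 2 and LIP 2. Of these 2 libraries, Rpl5 and Rpl11 were high in LAP 2 alone. Rps6 and Rpsa were each 2.10-fold in LAP 2, and 1.32-fold and 1.34-fold in LIP 2. In LIP 3, Rpl5 (1652 CPM), Rpl11 (975 CPM), Rps6, Rps19 (463 CPM) and Rpsa each exceeded all EV libraries.

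**Figure D3:**
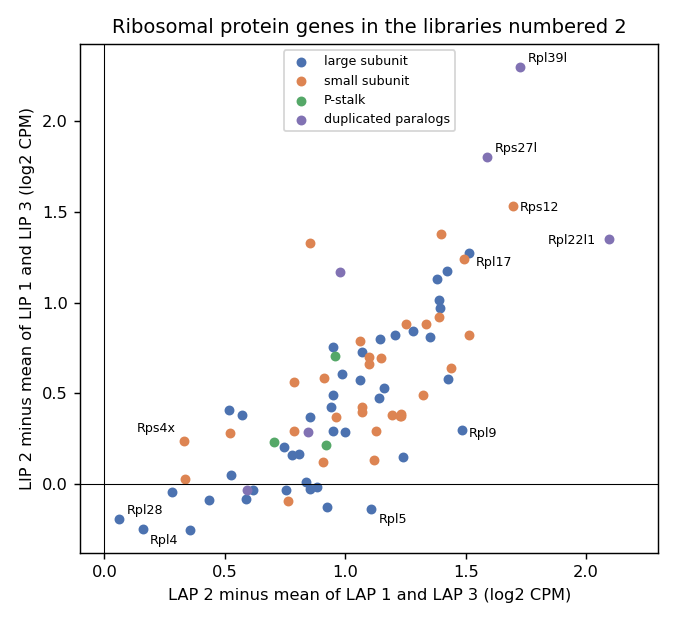
Log2 CPM of LAP 2 minus the mean of LAP 1 and LAP 3 (horizontal) against LIP 2 minus the mean of LIP 1 and LIP 3 (vertical), 1 point per ribosomal protein gene (82 genes), coloured by role. All points lie right of 0, and Rps12, Rpl17 and the paralogs Rpl22l1, Rps27l and Rpl39l lie far up and right, while Rpl28 and Rpl4 lie near the origin.

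Across the 82 genes, the deviation of LAP 2 and that of LIP 2 had a Pearson's r of 0.75 and a Spearman's rho of 0.75, against an r of 0.40 over the other 11453 genes. These are correlations across genes, which are not independent replicates. The mean of both deviations had a rho of -0.32 with transcript length, -0.33 with mean counts and -0.16 with GC content over the 82 genes. Pearson's r was -0.21, -0.34 and -0.24, with length and counts on the log2 scale. Length and GC content were those of a single GENCODE M21 transcript per gene, which need not be the form in these cells. Rps15a was entered with 5179 bases and Rps20 with 3706. Transcript length moved with the deviation in the rest of the transcriptome too. Genes with the shortest transcripts (up to 1913 bases) had a median log2 difference of 0.37 in LAP 2 and 0.054 in LIP 2, and those with the longest (over 4476 bases) had -0.22 and -0.094. Of those with the shortest, 12.6% were over 2-fold in LAP 2 and 7.12% in LIP 2. The median transcript was 833 bases for the ribosomal protein genes and 2989 bases for all genes that averaged 20 counts or more. The part of transcript length in the result was not tested. For the 13 genes with a pyrimidine run at a listed start the median deviation was 1.07 in LAP 2 and 0.58 in LIP 2, and for the 48 other genes with a listed start and enough counts it was 1.07 and 0.41. Rn45s was not extreme in these libraries, with 21244 counts in LAP 2 and 16674 in LIP 2, between the other libraries of each group.

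The comparison of LIP with EV asked which transcripts LIP changes in cells without other C/EBPβ. None of the 83 ribosomal protein genes passed a Benjamini-Hochberg adjusted p of 0.05 in the quasi-likelihood test of edgeR, where 0.0659% of all 18203 genes were called higher and 0.33% lower, and none passed in DESeq2. With the replicate number as a block, Rpl39l (adjusted p = 0.0258) and Rpl22l1 (adjusted p = 0.0484) passed in this test. At an unadjusted p under 0.05, 21 were higher and 0 lower, that is 25.3% of them against 4.23% of all genes higher and 6.75% lower. The number higher depended on the setting. It was 31 in DESeq2 (3.75% of all genes), 16 with the block (3.54%), 10 after filterByExpr (4.35%), 10 with at least 10 counts in every library (4.32%) and 8 with all 9 libraries in one model (4.21%), with 0 lower in each. In 29 genes (34.9%) the 3 LIP libraries all exceeded the 3 EV libraries, against 6.8% of all genes, and in 0 they were all below, against 8.83%. The median log2 fold change of the 81 genes that averaged 20 counts or more was 0.32, with 79 above 0, beside 0.015 and 52.4% above 0 for all genes. As these are bulk libraries, a change in the mixture of cells and a change of RNA per cell cannot be told apart. The fibroblast list summed to between 35259 and 39728 CPM in EV and to between 17012 and 30253 CPM in LIP, without overlap. Collagens and Fn1 made up most of this sum. Col1a1, Col1a2, Pdgfra and Pdgfrb were each lower in LIP without overlap, and the other markers of the list overlapped. Vim had 4155, 4980 and 4533 CPM in EV and 5092, 3358 and 4595 CPM in LIP, and S100a4 in LIP 2 (2485 CPM) exceeded all EV libraries. The part of the list in the result was not tested. P-values measure the spread between these libraries, since the sources do not say that they came from separate cultures.

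By role, the small subunit had a median log2 fold change of 0.38 in LIP against EV, with 31 of 31 genes above 0. The large subunit had 0.28, with 41 of 42 above 0, and the P-stalk had 0.30, with 3 of 3. The largest estimates above 0 apart from Rpl39l, which had fewer counts, were those of Rpl22l1 (1.09, SE 0.36, adjusted p = 0.263), Rps27l (1.02, SE 0.39, adjusted p = 0.350) and Rps12 (0.98, SE 0.36, adjusted p = 0.330). The lowest were Rps4y2 (-0.78, SE 0.56, adjusted p = 0.674), Rpl21 (-0.06, SE 0.18, adjusted p = 0.931) and Rpl6 (0.01, SE 0.24, adjusted p = 0.986). These 6 adjusted p-values, from edgeR's quasi-likelihood test without the block, all missed the threshold.

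Part of the LIP difference stayed when LIP 2 was left out. The median log2 fold change was then 0.18, with 74 of 81 genes above 0. The number of genes at an unadjusted p under 0.05 fell from 21 to 2, against 2.58% of all genes higher, while 32 of 83 still had no overlap with EV, against 10.7% of all genes. Without replicate 2 in both groups the median was 0.19.

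In the comparison of LAP with EV, 1 of 83 genes passed an adjusted p of 0.05 and was higher, against 0.0275% of all 18156 genes called higher and 0.033% lower. It was Rpl39l, described below. At an unadjusted p under 0.05, 11 were higher (1.93% of all genes were) and 0 lower (1.34%). With the replicate number as a block, 17 were higher at that p (3.5% of all genes) and 1 lower (2.58%), and the single adjusted call was unaltered. The number higher was 10 in DESeq2 (1.23% of all genes), 6 with all 9 libraries in one model (1.27%), 2 after filterByExpr (1.23%) and 1 with at least 10 counts in every library (1.09%). In 12 genes the LAP libraries all exceeded the EV libraries, against 3.81% of all genes, and in 1 gene, Rps4y2, they were all below, against 3.76%. The median log2 fold change of the 82 genes was 0.41, with 80 above 0, beside 0.0017 and 50.4% above 0 for all genes. Large subunit genes had a median of 0.39 (42 of 42 above 0), small subunit genes 0.45 (30 of 31) and P-stalk genes 0.18 (3 of 3). The next highest genes were Rpl22l1 (0.91, SE 0.44) and Rps12 (0.81, SE 0.37), and the lowest besides Rps4y2 were Rps2 (-0.03, SE 0.20) and Rpl28 (0.03, SE 0.17), all with an adjusted p of at least 0.918 by edgeR's quasi-likelihood test. This median rested on LAP 2. Without it the median was 0.0011, with 41 genes above and 41 below 0, and at an unadjusted p under 0.05 1 gene was higher (1.03% of all genes) and 1 lower (1.12%). In 12 genes the remaining LAP libraries all exceeded EV (7.27% of all genes), and in 5 they were all below (6.67%). In total-count scaling Rpl28 turned sign, to -0.0026.

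In the comparison of LIP with LAP, Rpl39l was again the only gene past the threshold and was lower in LIP, against 0.837% of all 18166 genes called lower and 0.209% called higher. Before adjustment, at a p under 0.05, it was again the single gene lower (5.98% of all genes were) and 0 were higher (3.3%). It was also the 1 gene whose LIP libraries all lay below LAP (6.58% of all genes), and for 0 genes did they all lie above (6.23%). The median log2 fold change was -0.03, with 38 of 82 genes above 0 (51% of all genes were). With scaling by total counts 47 of 82 were above 0, and the median was 0.05. Small subunit genes had a median of 0.0050, large subunit genes -0.05 and P-stalk genes 0.12. Where counts averaged 20 or more, the lowest estimates after Rpl39l were those of Rpl30 (-0.49, SE 0.33) and Rpl24 (-0.49, SE 0.32), and among the highest were Rps2 (0.31, SE 0.30) and Rps27l (0.29, SE 0.44), each within 2 standard errors of 0. The sign of the median turned with the library that was left out, at 0.31 without LAP 2, -0.26 without LIP 2 and 0.17 without both.

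**Figure D4:**
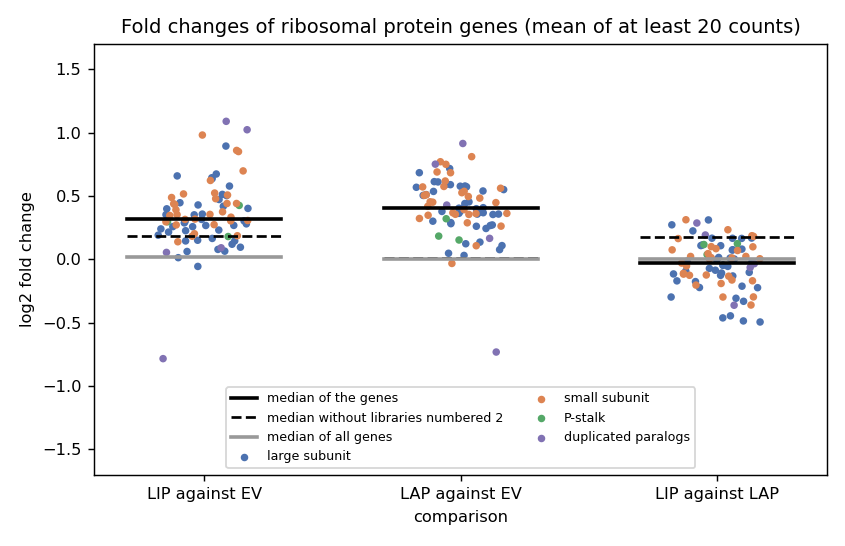
Log2 fold change (vertical, from the fit on 6 libraries) of each ribosomal protein gene that averaged 20 counts or more in the 3 comparisons, with black lines for their median, dashed lines for their median without the libraries numbered 2, and grey lines for the median of all genes. Rpl39l lies outside the axis in LAP against EV (6.67) and LIP against LAP (-3.73). The dashed line falls to 0.19 in LIP against EV and to 0.011 in LAP against EV.

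Rpl39l encodes a paralog of Rpl39, a very small protein that lines the exit tunnel of the large subunit, and is best known from male germ cells. The EV libraries held 3, 6 and 2 reads of it, the LAP libraries 252, 658 and 177, and the LIP libraries 25, 51 and 3, in the order of their numbers. In CPM these were 0.124 ± 0.0858 in EV, 12.7 ± 9.54 in LAP and 0.929 ± 0.791 in LIP (SD, n = 3 each). Each LAP library exceeded each EV and LIP library, and LIP 3 was at the EV level. The transcript was higher in LAP than in EV by a log2 fold change of 6.67 (SE 0.59, adjusted p = 0.000102) and lower in LIP than in LAP, at -3.73 (SE 0.60, adjusted p = 0.00557), by edgeR's quasi-likelihood test. LIP against EV gave 2.91 (SE 0.83, adjusted p = 0.186), which missed the threshold in the same test and passed it with the block (adjusted p = 0.0258) and without LIP 3 (adjusted p = 0.00492). The ratio of summed counts per total was 102 for LAP over EV (exact Poisson 95% interval 57.0 to 206) and 8.02 for LIP over EV (4.25 to 16.7). These intervals cover counting error only and leave out the spread between libraries. The LAP call was kept in all 6 fits that left out 1 library, with log2 fold changes of 5.87 to 7.27. The LIP against LAP call was lost without LAP 2 (-2.95) and without LIP 1 (-3.80), and, after removing genes with few counts by filterByExpr, at an adjusted p of 0.165 by edgeR's quasi-likelihood test (up to 0.213 over all alternatives).

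The coding sequences of the paralogs are shown because reads of 50 bases were assigned to either gene by sequence. They come from the GENCODE M21 transcripts on GRCm38 and both have 156 bases, of which 133 (85.3%) are identical. Capitals mark the 23 bases that differ.
Rpl39l: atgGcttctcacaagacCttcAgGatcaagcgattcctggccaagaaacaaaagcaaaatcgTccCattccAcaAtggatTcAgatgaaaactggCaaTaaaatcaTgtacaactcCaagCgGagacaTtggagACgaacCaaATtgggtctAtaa
Rpl39: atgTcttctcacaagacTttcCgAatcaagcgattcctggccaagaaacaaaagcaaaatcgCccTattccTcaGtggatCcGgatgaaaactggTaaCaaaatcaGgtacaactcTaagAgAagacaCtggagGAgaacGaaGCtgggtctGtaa
The longest identical stretch had 38 bases, and 0 windows of 50 bases were shared, in the coding sequences as in the whole transcripts. Rpl39l also shared 0 of its 756 windows with the transcripts of any other gene. It lies on chromosome 16 (10170197 to 10174911, GRCm38.p6), and Rpl39 lies on the X chromosome (37082518 to 37085222).

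Rpl39 itself had 700, 757 and 714 CPM in EV, 685, 1862 and 739 CPM in LAP, and 772, 1736 and 957 CPM in LIP, so it followed the family and was high in LAP 2 and LIP 2. The log2 ratio of Rpl39l to Rpl39 counts within a library was -12.51 ± 0.82 in EV, -6.52 ± 0.26 in LAP and -10.86 ± 1.91 in LIP (SD, n = 3 each). LAP exceeded EV by 5.99, and LIP minus LAP was -4.34, each with p = 0.1 in an exact permutation test (two-sided), which cannot give less for 3 libraries against 3, and 0.3 after adjustment over 12 ratios and comparisons. Germ cell markers were near the floor beside this. Dazl was at 0 and Ddx4 at 0 or 1 count in all libraries, and of 6 markers Sycp3 alone exceeded 3 counts in each library. The list summed to 0.280 to 0.644 CPM in EV, 0.586 to 0.826 CPM in LAP and 0.612 to 0.786 CPM in LIP, and its part in the result was not tested.

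Rpl22l1, the paralog of the RNA-binding protein Rpl22, had 6.10, 6.86 and 4.01 CPM in EV, 5.30, 22.1 and 5.03 CPM in LAP, and 8.41, 20.2 and 7.43 CPM in LIP. All LIP libraries exceeded all EV libraries, and LAP 2 and LIP 2 were far above the rest. Rpl22 had 373, 383 and 405 CPM in EV, 375, 813 and 362 CPM in LAP, and 354, 533 and 415 CPM in LIP. Rps27l, a paralog of Rps27 that is a target of p53, had 187, 215 and 191 CPM in EV, 183, 608 and 223 CPM in LAP, and 208, 767 and 232 CPM in LIP. It was high in LAP 2 and LIP 2 and near the EV level elsewhere. The within-library ratios of Rpl22l1 to Rpl22 and of Rps27l to Rps27 gave exact permutation p-values of 0.2 to 0.9 in the 3 comparisons. Rps27 itself had at most 5.14 CPM in any library, and 98.6% of the 50-base windows of its transcript occur in transcripts of other genes, so its count is uncertain.

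Rpl36al, the paralog of Rpl36a, had 232, 243 and 226 CPM in EV, 249, 452 and 253 CPM in LAP, and 251, 275 and 202 CPM in LIP. LAP exceeded EV without overlap. The log2 ratio of Rpl36al to Rpl36a was higher in LAP than in EV by 0.13 and lower in LIP than in LAP (-0.34), both with p = 0.1 by the exact permutation test and 0.3 after adjustment. Rpl7l1, the paralog of Rpl7, had 168, 176 and 157 CPM in EV, 171, 244 and 153 CPM in LAP, and 208, 174 and 152 CPM in LIP, and the groups overlapped.

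Rps4y2, listed by RefSeq as Rps4l and a paralog of Rps4x, was counted 61, 54 and 73 times in the EV libraries, 50, 46 and 12 times in the LAP libraries and 50, 41 and 5 times in the LIP libraries. LAP 3 and LIP 3 were low, and EV 3 was not. Its log2 fold change was -0.73 (SE 0.37, adjusted p = 0.918) in LAP against EV and -0.78 in LIP against EV, both short of the threshold of edgeR's quasi-likelihood test. Rps4x had 1406, 1593 and 1630 CPM in EV, 1472, 1939 and 1618 CPM in LAP, and 1565, 2147 and 2119 CPM in LIP, and showed no low value in LAP 3 or LIP 3.

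**Figure D5:**
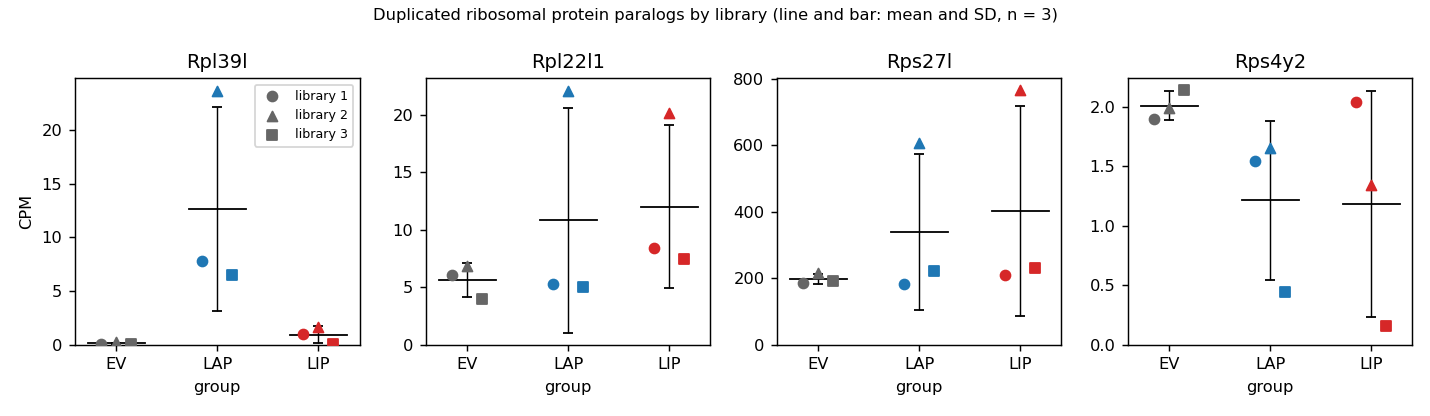
CPM (vertical, from 0) of 4 duplicated paralogs in EV, LAP and LIP, with a symbol for each library number, a line for the mean and a bar for the SD (n = 3). Rpl39l is above 6 CPM in the LAP libraries and below 2 CPM elsewhere, Rpl22l1 and Rps27l are high in LAP 2 and LIP 2, and Rps4y2 is low in LAP 3 and LIP 3.

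The P-stalk recruits the translational GTPases. Rplp0 had 2441, 2421 and 2632 CPM in EV, 2381, 3778 and 2255 CPM in LAP, and 2409, 3131 and 2951 CPM in LIP. Rplp1 had 1671, 1763 and 1809 CPM in EV, 1651, 3262 and 1706 CPM in LAP, and 1873, 3161 and 2008 CPM in LIP, where the LIP libraries all exceeded EV. Rplp2 had 23.8 to 26.9 CPM in EV, 19.1 to 41.4 CPM in LAP and 27.5 to 33.6 CPM in LIP, without overlap between LIP and EV. Adjusted for transcript length, Rplp1 had the highest level of the family in EV, with 3502 CPM per kilobase, followed by Rpl41 (2555) and Rps12 (2448), and Rplp2 had 25.8. Levels between genes have to be read with care, and each length was that of a single GENCODE M21 transcript. A median of 53.1% of the 50-base windows of these transcripts also occurred in transcripts of other genes, and reads with several alignments could be lost or shared. Over 82 genes, log2 CPM per kilobase in EV had a Pearson's r of 0.24 and a Spearman's rho of 0.27 with the percent of shared windows. The part of shared sequence in these levels was not tested.

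Among the most counted genes, Rpl6 varied most within EV, with 2244, 2454 and 3638 CPM, and had 2180, 3762 and 3126 CPM in LAP and 2470, 2861 and 3082 CPM in LIP. EV 3 alone was high there, and its log2 fold change of 0.01 in LIP against EV was -0.08 without the libraries numbered 2. Over the family, the median coefficient of variation was 5.60% in EV, 46.1% in LAP and 19.1% in LIP, beside 10.2%, 17.8% and 19.9% for all genes that averaged 20 counts or more. At the median the family was thus less variable than all genes in EV, and more variable in LAP, where LAP 2 stood apart. The genes were not matched for counts, so counting error can differ between the family and all genes.

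Fau and Gnb2l1 encode ribosomal proteins that fall outside the symbol rule. Fau is made as a fusion with a ubiquitin-like protein, and Gnb2l1 (Rack1) is a scaffold on the small subunit. Fau had 59.3 to 64.1 CPM in EV, 63.5, 124 and 58.5 CPM in LAP, and 70.6, 92.2 and 77.4 CPM in LIP. Gnb2l1 had 1624 to 1731 CPM in EV, 1777, 3231 and 1779 CPM in LAP, and 1838, 2196 and 2219 CPM in LIP. The highest LAP value of both was in LAP 2. Gnb2l1 was above EV without overlap in LAP as in LIP, and Fau in LIP alone. Of all genes, 6.8% were higher without overlap in LIP and 3.81% in LAP. In LIP against EV the log2 fold changes were 0.36 for Fau and 0.33 for Gnb2l1, with no adjusted call.

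Other lists of translation genes were set beside the family in LAP 2 and LIP 2, with no test of the difference. The 75 mitochondrial ribosomal protein genes were at 1.51-fold in LAP 2 and 1.08-fold in LIP 2 relative to the other libraries of the group at the median. In LAP 2, 72 of them were above 0 on the log2 scale. There 17.3% were over 2-fold, against 5.15% of all genes and 12.6% of genes with the shortest transcripts. The 54 initiation factors were at 0.981-fold and 0.939-fold, and the 71 ribosome biogenesis genes at 0.958-fold and 0.990-fold. The 10 elongation factors and other mRNAs known for a TOP tract were at 1.16-fold and 0.901-fold, with values from -0.58 to 1.10 on the log2 scale in LAP 2. The 14 genes of RNA polymerase I, which transcribes ribosomal RNA, were at 1.26-fold and 1.11-fold. In LIP against EV the median log2 fold change was 0.069 for the mitochondrial ribosomal proteins, 0.051 for the initiation factors, 0.070 for ribosome biogenesis, 0.22 for the elongation factors and TOP mRNAs and 0.072 for RNA polymerase I, against 0.32 for the cytosolic ribosomal proteins. Of these lists, the initiation factors had 1 of 57 genes past an adjusted p of 0.05 in edgeR's quasi-likelihood test, higher, against 0.0659% of all genes. The others had 0. At an unadjusted p under 0.05 in that test, 2 of 10 elongation factor or TOP genes, Npm1 and Hnrnpa1, were higher, against 4.23% of all genes. Each other list had 1 gene higher. The mitochondrial ribosomal proteins and the initiation factors also had 1 gene lower each, against 6.75% of all genes. In LAP against EV the mitochondrial ribosomal proteins had a median of 0.26, with 72 of 76 above 0, beside 0.41 for the cytosolic ones. Of the 5 lists, 0 genes passed an adjusted p of 0.05. At an unadjusted p under 0.05, 5 of 76 mitochondrial ribosomal proteins and 2 of 57 initiation factors were higher, against 1.93% of all genes. So were 1 of 10 elongation factor or TOP genes, 1 of 14 RNA polymerase I genes and 0 of 71 ribosome biogenesis genes. Lower were 1 of the 57 initiation factors and 0 genes of the other lists, against 1.34% of all genes. The 10 S6 kinase genes, left out by the rule, had a median of -0.088 in LIP against EV and -0.16 in LAP against EV.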

How the data were processed

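RNA of Cebpb-ko MEFs, in 3 libraries each of EV, LAP and LIP, was sequenced with single reads of 50 bases. The authors extracted reads with bcl2fastq 1.8.3, aligned them to mm10 (GRCm38) with TopHat 1.4.1 and deposited raw counts per gene from HTSeq 0.5.4, without normalization. The strand setting and the handling of reads with several alignments are not given in the sources used here.

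Each comparison used the 6 libraries concerned and every gene with at least 1 count. Counts were normalized by TMM and compared by the quasi-likelihood test of edgeR (version 4.0.16, in R 4.3.3) without covariates, with Benjamini-Hochberg adjustment over all genes and a threshold of 0.05. The SE was derived from the fold change and the F value. Printed CPM used TMM over 9 libraries, and deviations used log2 CPM with a prior count of 0.5. Paralog ratios had 0.5 added to each count. Medians used genes that averaged 20 counts or more. The fit was tested on simulated data.

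The labels number the libraries 1 to 3. Same-numbered libraries deviated together from their group means in LAP and EV (r from 0.21 to 0.52) and in LIP and LAP (0.41 to 0.55). In LIP and EV, r was 0.29 for the libraries numbered 1 and 0.23 for those numbered 3, but -0.12 for those numbered 2. Whether a number marks a shared culture is not given in the sources used here.

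The members and gene lists were chosen with earlier results of these data known. Named are genes past the threshold, the 3 highest and lowest per comparison, paralogs with their parents, P-stalk genes, Rpsa, the 5 most counted, and Rpl5, Rpl11, Rps6 and Rps19. Alternative settings were a DESeq2 test (version 1.42.0), alone or with edgeR's exact test, its size factors, total counts, TMM without the members, filterByExpr, a limit of 10 counts per library, a model of 9 libraries, the replicate block and each library left out. Values of 1 member and 1 other gene that these rules name are not reported here. All 85 symbols matched RefSeq, Rps3a and Rps4y2 through synonyms. Figures used matplotlib 3.10.9.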

Additional observations from a re-analysis of the deposited data

Results flagged for a closer look

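Rpl39l differed between LIP and LAP by a log2 fold change of -3.73 in edgeR's quasi-likelihood test, which tests the difference between the effects of the isoforms directly. Counts were 252, 658 and 177 in LAP and 25, 51 and 3 in LIP.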

How the results depend on the processing

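Adjusted calls held under most alternatives. In LIP against EV the replicate block gave 2 calls, Rpl39l (2.70, adjusted p = 0.0258) and Rpl22l1 (0.97, adjusted p = 0.0484) by edgeR's quasi-likelihood test, and leaving out 1 library gave 0 to 2 (2 without LIP 3). The other adjusted p-values of Rpl39l there ran up to 0.809. In LAP against EV the limit of 10 counts in every library removed Rpl39l and gave 0 calls. Its adjusted p was at most 0.0372 elsewhere. In LIP against LAP the calls were 0 with filterByExpr, with that limit and without replicate 2 in both groups, and 0 to 1 with 1 library left out. The block changed no other call.

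The median log2 fold change in LAP against EV was 0.011 without replicate 2 in both groups and 0.0011 to 0.59 with 1 library left out. Rpl6 in LIP against EV was -0.083 without replicate 2 in both groups (-0.11 to 0.26 with 1 library left out), and Rpl28 in LAP against EV was -0.0026 with total counts and -0.041 without replicate 2 in both (-0.041 to 0.13). Leave-one-out ranges that crossed 0 were -0.14 to 0.062 for Rps2 and -0.13 to 1.25 for Rpl22l1 in LAP against EV, -0.42 to 1.22 for Rpl22l1 and -0.59 to 0.99 for Rps27l in LIP against LAP, -0.025 to 0.46 for the ratio of Rpl22l1 to Rpl22 in LAP against EV, and, for Rps27l to Rps27, -0.10 to 0.33 in LIP against EV, -0.40 to 0.11 in LAP against EV and -0.055 to 0.49 in LIP against LAP. The cause was not tested. With 3 libraries per group, exact tests cannot go below p = 0.1.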
